A study of Mus musculus with 58 samples.

Results

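The collagens are a family of extracellular matrix genes, and 43 of the 19699 mouse genes in the deposited table carry a symbol of the form Col, a number, a, a number. All 43 rows were taken as members, irrespective of their values, and the similarly named Col4a3bp, which is not a collagen, was not taken. The study sorted single cells of the embryonic mouse pancreas into 384-well plates and counted their transcripts by SORT-seq, a method that tags the end of each mRNA with a molecular barcode before sequencing. Embryos came from females carrying MIP-GFP, a transgene that labels cells with green fluorescent protein under the mouse insulin promoter. Plates held either live cells or MIP-GFP cells, taken at 4 successive embryonic (E) days from E12.5 to E15.5 and at E18.5. No embryo in these groups carries another allele or a treatment, and the labels name no strain.

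Each collagen molecule is a trimer of alpha chains, and each gene encodes 1 chain. Fibrillar collagens, such as types I and III, are secreted by mesenchymal cells and assemble into the fibres of connective tissue. Type IV collagen forms the sheet of the basement membrane under epithelia and around vessels, and its chains are encoded by gene pairs that lie head to head. Multiplexins (Col15a1 and Col18a1) sit at basement membranes, FACIT collagens such as type IX decorate fibrils, and type VI forms beaded filaments close to cells. In the pancreas, the mesenchyme surrounds a branching epithelium whose trunk gives rise to ducts and, through cells that briefly express the transcription factor Neurog3, to the hormone cells of the islets.

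The analysis used 15 plates that could be tied to the labels, with 5760 wells, of which 4318 held at least 2000 transcripts and 500 genes and were taken as cells. Plates gave 1222637 to 9490716 transcripts in cells, with a median of 6919 to 27218 per cell, and no cell had the same values as another. The plates belong to 7 experiments named by an EP number. The youngest, E12.5, was sampled in EP11 and EP18. EP12 gave E13.5, EP14 gave E14.5, EP10 with EP17 gave E15.5, and E18.5 came from EP16. The labels do not say whether cells of an experiment came from 1 or several embryos, so the spread between experiments includes embryo, sort and plate, and at 3 of the 5 stages there was 1 experiment. The titles of 12 libraries name another stage than their stage field, which was followed here, and a plate coded P6-002 is labelled live at E18.5 although 291 of its 301 cells passed the insulin gate described next. Without that plate, each count of called collagens in a comparison differed by at most 2.

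Cells were clustered on genes other than the collagens, so that no collagen defined a class, and clusters were named from marker lists. Mesenchyme (628 cells) joined 3 clusters in which 9 or 10 of 12 mesenchyme markers were raised, such as Pdgfra and Dcn, and 1 cluster in which 6 of 8 pericyte and smooth muscle markers were raised with 4 of the mesenchyme list. That last cluster held nearly all mesenchyme cells of E12.5 (141 in EP11, 66 in EP18), and another held 112 of the 116 cells of E18.5. The other 2 held most cells between, so stage and cluster cannot be told apart in mesenchyme. Markers of the pericyte and smooth muscle list summed to 475 and 315 CPM in mesenchyme of EP11 and EP18. The other mesenchyme sums held more, 533 to 830 CPM, so this list does not set E12.5 mesenchyme apart from later mesenchyme. Mesothelium, the sheet over the organ, had 141 cells with 8 of 9 markers raised, such as Wt1 and Upk3b. Endothelial cells numbered 28 with 11 of 11 markers raised, and only EP14 (10 cells) and EP10 (12 cells) gave the 5 cells needed for a sum. Trunk cells numbered 216, with 9 of 12 markers raised, such as Spp1 and Sox9, in 1 cluster up to E15.5 and another at E18.5. Neurog3-gated cells (143) had at least 2 Neurog3 transcripts and no Fev transcript. They lay outside every hormone gate (insulin, glucagon, somatostatin, Ppy and ghrelin). Insulin-gated (1000) and glucagon-gated (571) cells gave at least 1% of their transcripts to that hormone and 3 times as much as to any other. Of the glucagon-gated cells, 278 and 100 lay in 2 clusters, mostly of E12.5, in which hepatocyte-list genes (Afp, Fgb, Ttr) were raised beside 3 endocrine markers. The part of this in the results was not tested.

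Levels are given as CPM: the transcripts of a gene in every 1000000 transcripts of all cells of a class and experiment. SORT-seq counts 1 end of each mRNA, so levels of different genes were compared without scaling for length. The highest collagen value in any well was below the ceiling that the deposited counts can reach.

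Collagen transcripts were a percent or more of the mesenchymal transcriptome after E12.5 and a small fraction of a percent in every epithelial or hormone class. In mesenchyme the family took 0.653% and 0.768% of all transcripts in the 2 experiments of E12.5, then 1.22%, 1.77% and 1.8% in EP12, EP14 and EP10, and 4.56% at E18.5. Mesothelium followed the same order, from 0.468% and 0.623% at E12.5 to 3.48% at E18.5, with 1.96% in the 6 cells of EP17. Endothelial cells, at 0.514% and 0.456%, overlapped the lowest mesothelial value, and every sum of the remaining classes lay below both tissues. Trunk gave 0.103% to 0.204%, Neurog3-gated cells 0.0934% to 0.246%, glucagon-gated cells 0.0271% to 0.0615% and insulin-gated cells 0.0272% to 0.0499%. Immune cells, which were taken as a class that should lack most collagens, ranged from 0.00301% at E12.5 to 0.127% at E18.5, so a low level in another class at late stages cannot be told apart from RNA of other cells.

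**Figure D1:**
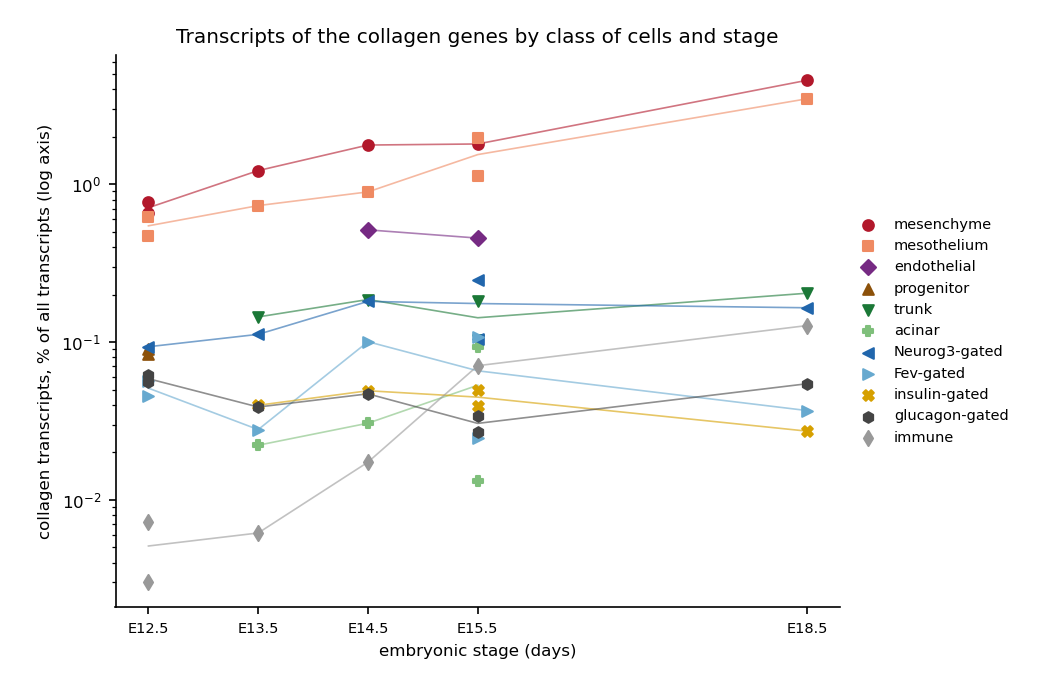
Share of all transcripts that came from the 43 collagen genes (y axis, percent, log scale) against embryonic stage (x axis, days); each point is the sum of 1 class in 1 experiment and lines join stage means. Mesenchyme runs from 0.653% to 4.56% and mesothelium from 0.468% to 3.48%, with the EP17 sum of mesothelium (1.96%) above mesenchyme of the same stage, and insulin-gated and glucagon-gated cells lie at 0.0271% to 0.0615%.

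The make-up of the family also differed between classes. Fibrillar chains were 73.6% to 84.2% of collagen transcripts in mesenchyme and 84.1% to 86.8% in mesothelium. In endothelial cells type IV chains were 57.3% and 57.6% and multiplexins 35.2% and 29.3%. Fibrillar chains were 18.4% to 39.9% in trunk. In insulin-gated cells FACIT chains made up 20.8% to 43.6% and beaded filament chains 14.3% to 38.5%.

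By mean level over experiments, which is a description with no test, 20 collagens were highest in mesenchyme, 8 in mesothelium, 5 in endothelial cells, 4 in trunk (Col2a1, Col9a1, Col9a3, Col27a1), 3 in Neurog3-gated cells (Col9a2, Col11a2 and, on 2 transcripts, Col4a3), 2 in insulin-gated cells (Col20a1, Col28a1) and 1 in acinar cells (Col19a1). Most of these ranges overlapped. Only for Col4a1, Col4a2, Col15a1 and Col18a1 in endothelial cells, and Col4a6 in mesothelium, did the lowest experiment of the first class exceed the highest of the second. That is 5 of 43, or 11.6%, beside 7.85% of the 19189 genes counted in these classes, and among genes highest in endothelial cells, with 2 sums, the share was 24.1%. For none of the 20 chains of mesenchyme did the ranges separate, beside 4.37% of all genes highest there, and for 15 of them the second class was mesothelium. The 9 following members did not reach a mean of 10 CPM in any class, whichever class was highest: Col4a3, Col4a4, Col6a4, Col17a1, Col19a1, Col20a1, Col22a1, Col24a1 and Col28a1.

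**Figure D2:**
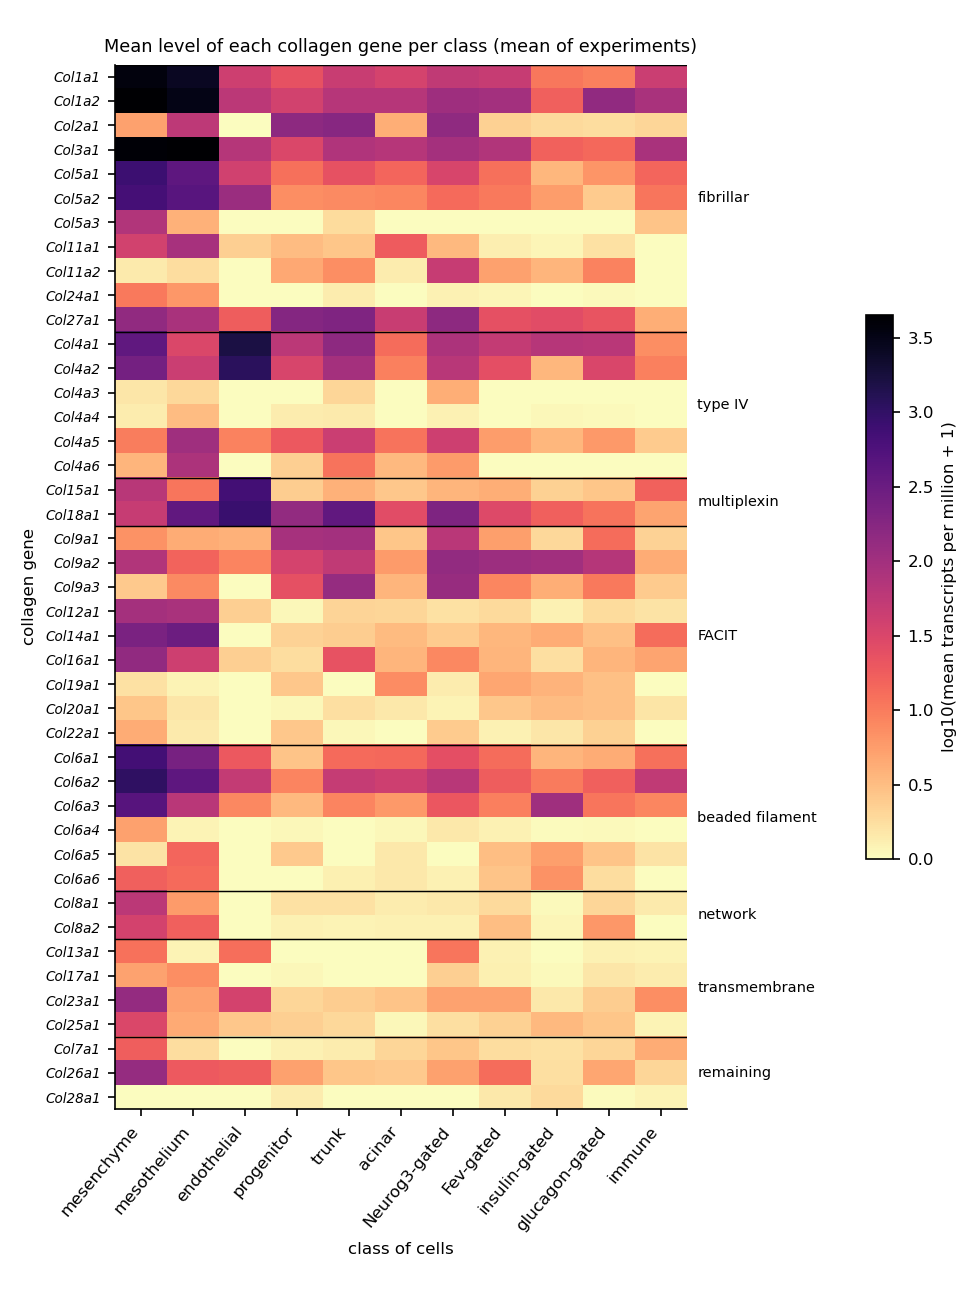
Mean level of each of the 43 collagen genes (rows, grouped by structural class) in 11 classes of cells (columns), as log10 of mean CPM over experiments plus 1. The dark blocks are the fibrillar and beaded filament chains in mesenchyme and mesothelium and the type IV chains and multiplexins in endothelial cells.

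Class differences were tested on summed counts with edgeR's quasi-likelihood test over all genes, with the experiment as a block, and a gene was called at a Benjamini-Hochberg adjusted p under 0.05. Of the 43 members, 38 passed the filter on low counts, and Col4a3, Col4a4, Col19a1, Col20a1 and Col28a1 did not. Some members passed only through the class in which they were high. Between mesenchyme and trunk, 35 of the 38 were called, 28 higher in mesenchyme and 7 lower, where 38.3% of all genes tested were called (21.4% higher, 16.9% lower). The median log2 difference was 5.16 over the collagens against 0.10 over all genes, and 4.11 with the 4 members that had no transcript in 1 of the classes set to the smallest fold their counts allow.

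The chains of the major fibres set the mesenchyme apart from trunk, though not from mesothelium, where they were also high. Col1a1 and Col1a2 encode the chains of type I collagen, the main protein of connective tissue fibres. Col1a1 stood at 1196 and 1531 CPM at E12.5, 2442, 3167 and 2802 on the following days and 10637 at E18.5 in mesenchyme, and at 5.58, 33, 81.1, 10.5 and 93.5 CPM in the trunk sums from E13.5 to E18.5. The groups did not overlap, and mesenchyme was higher by 7.27 (SE 0.734, adjusted p = 1.14e-11) on the log2 scale. Col3a1, whose homotrimer accompanies type I, was higher by 6.98 (SE 0.766, adjusted p = 1.3e-10). In immune cells Col1a1 was at 1.16, 20.9 and 63.1 CPM in EP12, EP14 and EP10, each below the trunk sum of that experiment. At E18.5 it was at 160 CPM in immune cells, above trunk. Col1a2 reached 321 CPM in immune cells at E18.5, against at most 155 CPM in any trunk sum. No order was read from the low trunk values.

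Type V collagen, which nucleates the fibrils, has 3 chains here with unlike patterns. Col5a1 ranged from 286 to 2009 CPM and Col5a2 from 357 to 1392 CPM in mesenchyme. Col5a3 was near its floor at E12.5, with 0.761 and 1.84 CPM, and at 2.14, 5.2 and 9.69 CPM through E15.5, and reached 408 CPM at E18.5. All 3 were higher in mesenchyme than in trunk.

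The largest difference from trunk was that of Col14a1, a FACIT chain of fibril surfaces, at 7.47 (SE 0.621, adjusted p = 1.33e-14). Its level in mesenchyme was 84.5 to 129 CPM up to E15.5 and 826 CPM at E18.5. Col8a2, a network chain, had 360 transcripts in mesenchyme against 1 in trunk, a ratio of 153 with an exact 95% interval of 27.3 to 6056 that covers counting error only. Col13a1, a transmembrane collagen, had 130 transcripts in mesenchyme and none in trunk, which makes it at least 18.4-fold higher when trunk is set to 3 counts over the class. Type VI chains were called together: Col6a1, Col6a2 and Col6a3 were higher in mesenchyme by 6.49 (SE 0.557), 5.35 (SE 0.551) and 6.30 (SE 0.723), and 5 of the 6 beaded filament chains tested were called higher and none lower. Of the 11 fibrillar chains tested, 8 were higher, 2 lower (Col2a1 and Col11a2) and Col27a1 was not called.

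A second set of chains ran the other way. Col2a1, best known as the main collagen of cartilage, was at 323, 374, 105, 15.7 and 21.6 CPM in the 5 trunk sums, and at most 12.6 CPM in the mesenchyme sums. It was lower in mesenchyme (log2 difference -5.43, SE 0.395, adjusted p = 3.41e-17). Col9a3, a chain of the type IX collagen that coats type II fibrils, showed the largest difference of this kind at -6.42 (SE 0.456, adjusted p = 3.02e-18), from 87.9, 121, 128, 83.7 and 219 CPM in trunk. Col9a1 (-4.42), Col11a2 (-3.18) and Col18a1 (-2.78) completed the 5 largest, and Col4a5 and Col4a6 were also lower in mesenchyme. The partner chain Col9a2 was not called, with a log2 difference of 0.70 (SE 0.383, adjusted p = 0.151), since mesenchyme itself held 17.2 to 119 CPM. The 3 chains of type IX thus differed in where they were counted.

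Col27a1, a minor fibrillar chain, was present at like levels in both, with 141 to 280 CPM in trunk and 99.5 to 177 CPM in mesenchyme. The log2 difference was -0.27 (SE 0.231, adjusted p = 0.377), a value that missed the threshold and does not show equality. Progenitor cells of E12.5, the epithelium before the trunk forms, held 209 and 155 CPM of Col27a1 and 225 and 69.8 CPM of Col2a1 in EP11 and EP18. Chains best known from cartilage were thus counted in epithelium from the first stage sampled.

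Mesothelium had fibrillar levels that overlapped those of mesenchyme, and separate levels of the basement membrane chains. Of 38 collagens, 25 were called between mesothelium and mesenchyme, 5 higher and 20 lower in mesothelium, where 20.1% of all genes were called (10.1% higher, 9.99% lower). The median log2 difference was -0.98 against -0.12 over all genes. Type I and type III chains were not called: Col1a1 differed by -0.94 (SE 0.475, adjusted p = 0.169) and Col3a1 by -0.52 (SE 0.511, adjusted p = 0.541). Col3a1 in mesothelium went from 716 CPM in EP11 to 12509 CPM at E18.5.

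The X-linked type IV pair gave the clearest separation. Col4a6 was at 44.6 and 85.4 CPM at E12.5, 62 in EP12, 55.2 in EP14, 69.5 in EP10, 102 in EP17 and 128 in EP16 in mesothelium, and 1.3 to 4.5 CPM in the mesenchyme sums. The groups did not overlap, and the difference was 4.55 (SE 0.408, adjusted p = 1.11e-11). Col4a5 was higher by 3.35 (SE 0.301, adjusted p = 3.96e-14), from 54.4 to 212 CPM against at most 13.49 CPM. Col18a1, whose end fragment is endostatin, was higher by 2.82 (SE 0.397) and Col2a1 by 3.54 (SE 0.390). Col6a5 also passed, by 3.18 (SE 1.15, adjusted p = 0.0433), but all but 1 of its 30 transcripts were counted at E18.5 and the call was lost in 9 of the alternative settings.

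Lower in mesothelium were the other type IV pair and type VI. Col4a1 stood at 8.28 to 102 CPM in mesothelium, with the highest value in the 6 cells of EP17, against 113 to 849 CPM in mesenchyme, and the difference was -4.42 (adjusted p = 1.13e-10). Col6a3 was at 0 CPM in 3 of the 7 mesothelial sums, at 4.18 to 18.9 CPM in 3 others and at 394 CPM at E18.5, and the difference was -3.43 (SE 0.550, adjusted p = 2.99e-06). Of the transmembrane chains, Col23a1 differed by -4.75 (SE 0.462) and Col13a1 had 1 transcript in mesothelium against 130 in mesenchyme, a ratio of 34.2 with an exact 95% interval of 6.04 to 1363. The Col13a1 call was lost with DESeq2.

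The gene order of type IV chains is shown because the members of each head-to-head pair start close together on opposite strands yet were counted at unlike levels in some classes. Col4a1 (chr8:11198423-11312826, minus strand) and Col4a2 (chr8:11312805-11449287, plus strand) overlap at their first bases in the GENCODE annotation of GRCm38, with starts 21 bases apart, and the starts of Col4a5 and Col4a6 on chromosome X lie 1309 bases apart. The 250 bases before the RefSeq start of each gene (build GRCm38.p6), read on the gene's own strand, were searched for TATAAA (the TATA box), CCAAT (the CCAAT box) and GGGCGG (a GC box) on both strands, and capitals mark the matches. Col4a1 at chr8:11312827-11313076 (minus strand), Col4a2 at chr8:11312555-11312804 (plus strand), Col4a5 at chrX:141475169-141475418 (plus strand) and Col4a6 at chrX:141474077-141474326 (minus strand) read as follows. The printed stretches of a pair do not overlap: 22 bases lie between those of Col4a1 and Col4a2, each of which lies inside the body of the partner gene, and 842 bases between those of Col4a5 and Col4a6. The Col4a5 stretch ends past the GENCODE start of that gene.
Col4a1: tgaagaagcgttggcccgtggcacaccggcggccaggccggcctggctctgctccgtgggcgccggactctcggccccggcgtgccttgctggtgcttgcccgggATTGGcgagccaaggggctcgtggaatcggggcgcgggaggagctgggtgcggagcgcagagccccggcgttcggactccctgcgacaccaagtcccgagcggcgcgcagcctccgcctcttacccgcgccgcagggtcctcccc
Col4a2: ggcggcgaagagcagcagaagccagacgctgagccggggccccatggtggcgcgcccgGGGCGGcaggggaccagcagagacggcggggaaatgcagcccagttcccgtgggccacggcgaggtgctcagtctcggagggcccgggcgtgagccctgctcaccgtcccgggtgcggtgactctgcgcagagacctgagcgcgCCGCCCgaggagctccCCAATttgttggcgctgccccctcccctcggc
Col4a5: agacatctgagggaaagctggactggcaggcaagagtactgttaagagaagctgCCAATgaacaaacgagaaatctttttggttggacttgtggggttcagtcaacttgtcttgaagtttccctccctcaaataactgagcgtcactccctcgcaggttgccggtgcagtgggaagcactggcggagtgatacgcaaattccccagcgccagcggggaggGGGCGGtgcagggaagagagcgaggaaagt
Col4a6: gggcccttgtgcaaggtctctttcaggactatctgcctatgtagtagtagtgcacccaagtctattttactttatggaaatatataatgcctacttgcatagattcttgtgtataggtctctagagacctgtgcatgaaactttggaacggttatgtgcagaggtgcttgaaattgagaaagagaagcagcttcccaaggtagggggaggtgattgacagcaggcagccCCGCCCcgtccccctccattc
The stretches of Col4a1 and Col4a2 are 74.4% and 73.6% G or C, and those of Col4a5 and Col4a6 are 54% and 47.6%, beside a median of 52.4% over all 32851 stretches in the RefSeq table. None of the 4 holds TATAAA, which 12.4% of all stretches hold. CCAAT was found in Col4a1, Col4a2 and Col4a5 (33.8% of all stretches) and GGGCGG in Col4a2, Col4a5 and Col4a6 (32.7% of all stretches). Of the 43 members, 34 matched the table, with 37 stretches, of which 4 held TATAAA, 13 CCAAT and 22 GGGCGG, or 10.8%, 35.1% and 59.5%. These matches describe letters in a window and say nothing on which factor binds.

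Endothelial cells had the highest levels of the Col4a1 and Col4a2 chains, which form the common type IV trimer. Col4a1 was at 1723 CPM at E14.5 and 1514 CPM at E15.5, and Col4a2 at 1211 and 1109 CPM. Both were above every sum of the other classes. Relative to mesenchyme, 26 of 38 collagens were called, 4 higher and 22 lower, where 18.6% of all genes were called (8.32% higher, 10.3% lower). The median log2 difference was -4.80 over the collagens and -0.26 over all genes, and -2.88 with the 15 members at 0 in 1 class set to their bounds.

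The 4 chains that were higher in endothelial cells than in mesenchyme are the type IV pair and both multiplexins. Col15a1 was at 765 and 647 CPM and differed by 4.07 (SE 0.608, adjusted p = 7.94e-07). Col18a1 was at 1042 and 687 CPM and differed by 3.87 (SE 0.499, adjusted p = 3.79e-08). Col4a2 differed by 2.32 (SE 0.502, adjusted p = 0.000427) and Col4a1 by 1.95 (SE 0.442, adjusted p = 0.00078). The calls of Col4a1 and Col4a2 were lost on live plates alone (adjusted p = 0.159 and 0.0952 for Col4a2 and Col4a1) and without EP14 (0.109 and 0.154), which leaves 1 endothelial sum that is assumed to vary as the other classes do.

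Among the chains lower in endothelial cells, Col14a1, Col8a1, Col8a2, Col7a1 and Col6a6 had no endothelial transcript. With endothelial cells set to 3 counts, mesenchyme was at least 44.9-fold higher for Col14a1, 14.2-fold for Col8a1, 7.9-fold for Col8a2, 4.74-fold for Col7a1 and 4.67-fold for Col6a6. Against trunk, 14 of 38 collagens were called in endothelial cells, 7 higher and 7 lower, where 20.4% of all genes were called (10.6% higher, 9.74% lower). Col15a1 differed by 8.41 (SE 0.802, adjusted p = 6.65e-12), Col4a2 by 3.84 (SE 0.566) and Col5a2 by 3.93 (SE 0.746), and Col13a1 was at least 17.2-fold higher. Lower in endothelial cells were Col9a1 (-4.99, SE 0.952, with 2 transcripts), Col27a1 (-3.71, SE 0.507) and, with none counted, Col2a1 (at least 50.4-fold), Col9a3 (at least 29.8-fold) and Col4a6 (at least 2.27-fold). Col18a1 did not pass here (1.09, SE 0.515, adjusted p = 0.142), as trunk also held 249 to 500 CPM. The median was -0.34 over the collagens and -0.15 over all genes, and 0.00 with 16 members at their bounds.

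**Figure D3:**
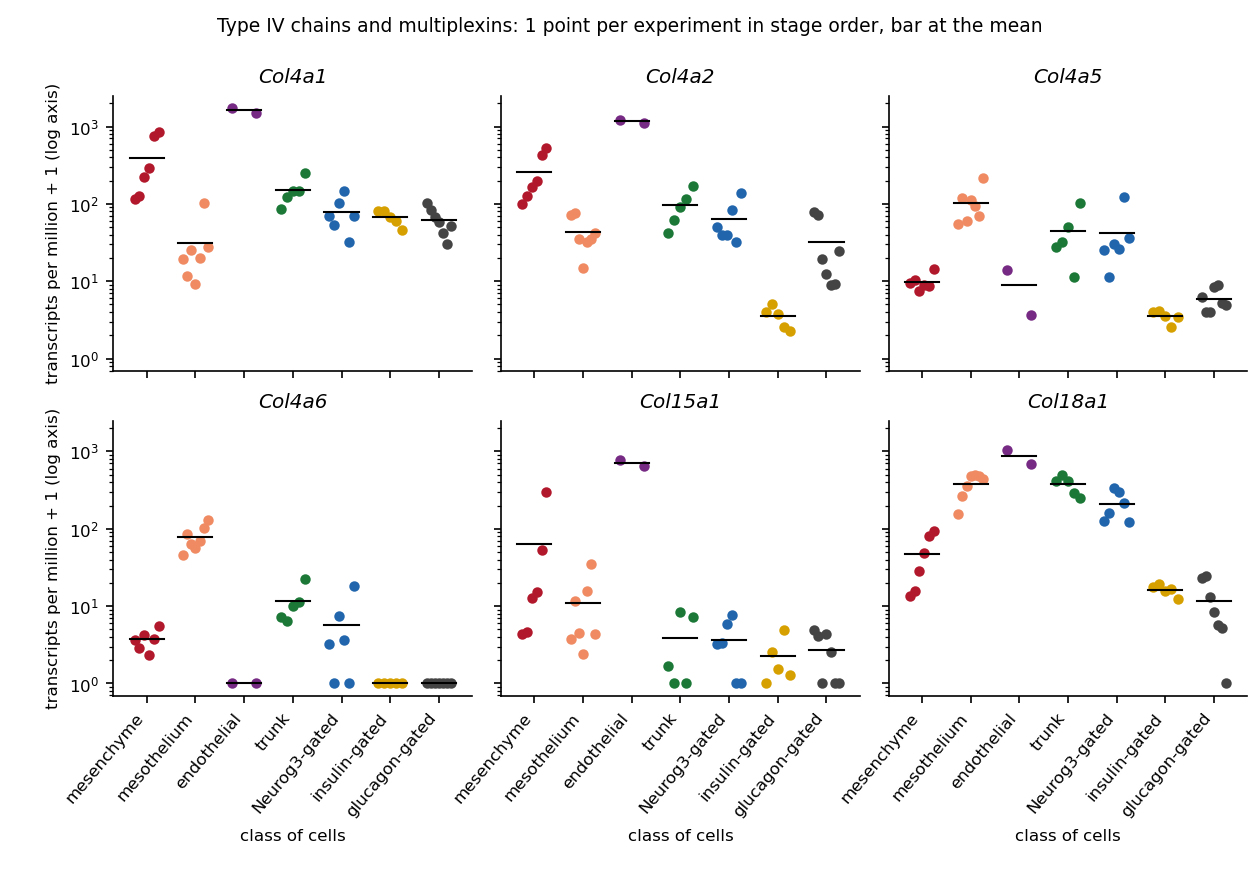
Levels of 4 type IV chains and both multiplexins (CPM plus 1, log scale) in 7 classes of cells; each point is 1 experiment, in stage order from left to right, and bars mark means. Endothelial cells are highest for Col4a1, Col4a2, Col15a1 and Col18a1, mesothelium for Col4a5 and Col4a6, and in insulin-gated cells Col4a1 lies at 45.4 to 79.7 CPM while Col4a2 lies at 1.3 to 4.13 CPM.

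Trunk cells held less Col4a1 and Col4a2 than endothelial cells, and more Col4a5 (44.1 ± 35.6 CPM, SD, n = 5, against 13 and 2.69 CPM). In the sums of E13.5, E14.5, E15.5 (EP10, EP17) and E18.5, Col4a1 was at 85.1, 120, 144, 146 and 250 CPM and Col4a2 at 41.2, 60.6, 90.1, 115 and 168 CPM. Both rose with stage, Col4a1 by 0.31 (SE 0.0716, adjusted p = 0.0469) and Col4a2 by 0.40 (SE 0.0851, adjusted p = 0.0303) on the log2 scale per day. Col4a5 rose by 0.42 per day (SE 0.0979, adjusted p = 0.0488), from 26.5 CPM at E13.5 to 103 CPM at E18.5, with 10.5 CPM in EP17. Col16a1, a FACIT chain, rose by 0.83 (SE 0.152, adjusted p = 0.0135) and Col9a1 fell by 0.49 per day (SE 0.0992, adjusted p = 0.0211). These were the 5 of 19 collagens tested that were called, where 2.38% of all genes were (1.91% rising, 0.463% falling). Col2a1 went from 323 and 374 CPM at E13.5 and E14.5 to 21.6 CPM at E18.5, but its slope of -0.88 (SE 0.211, adjusted p = 0.102) did not pass. The trunk slopes rest on 5 sums. No collagen was called without EP12 or without EP16, and 1 without EP14, and the E18.5 cells are those of a separate cluster. Without EP16 the slope of Col4a1 was 0.43 with an adjusted p of 0.564.

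Few collagens were called between Neurog3-gated and trunk cells. Of 38, 3 were called, all higher in Neurog3-gated cells, or 7.89% of the collagens beside 7.68% of all genes called higher, 5.16% called lower and 12.8% called in all. At an unadjusted p under 0.05, edgeR gave 7 higher and 4 lower. The median log2 difference was 0.68 over the collagens and -0.05 over all genes, and 0.60 with 5 members at their bounds. Col11a2, a fibrillar chain that pairs with type II collagen in cartilage, was at 15.53, 28.8, 14.6, 38.3, 92.2 and 86.8 CPM in EP11, EP12, EP14, EP10, EP17 and EP16, the last 2 resting on 6 and 5 cells. In trunk it was at 0 to 18 CPM, and the difference was 2.21 (SE 0.552, adjusted p = 0.00374).

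Col9a2 was at 77.6 to 174 CPM in Neurog3-gated cells against 36 to 72.2 CPM in trunk, ranges that did not overlap, and differed by 1.20 (SE 0.391, adjusted p = 0.0323). The call was lost in 7 of the alternative settings. Col13a1 had 20 transcripts against none in trunk, at least 10.5-fold, and the call was lost with DESeq2. In the wells that the authors had kept, 5 collagens were called, 2 higher and 3 lower in Neurog3-gated cells, Col18a1 and Col4a2 among the lower. Col2a1 was not called (-0.44, SE 0.311, adjusted p = 0.397). It was at 290, 251 and 167 CPM in EP12, EP14 and EP10, beside 323, 374 and 105 CPM in trunk, at 153 CPM in EP11, which has no trunk sum, and not counted in EP17 and EP16. Col3a1 was highest in EP10, at 329 CPM. There 10 of 12 mesenchyme markers had a transcript, with a summed level of 1067 CPM against 312 to 1492 CPM in the other sums. Of the 143 Neurog3-gated cells, 4 lay in clusters named for non-epithelial lineages. The part of such cells, or of other cells' RNA, in the Col3a1 level was not tested.

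Many collagens were lower in hormone cells than in Neurog3-gated cells. Of the 38, 21 were called between hormone-gated cells, taken as the mean of insulin-gated and glucagon-gated cells, and Neurog3-gated cells. 20 were lower and 1 higher in hormone cells, where 44.3% of all genes were called (26.1% lower, 18.2% higher). The median log2 difference was -2.33, beside -0.09 over all genes. The 12 mesenchyme markers also summed to less in hormone cells. They gave 8.92 to 56.6 CPM in insulin-gated and 44.9 to 106 CPM in glucagon-gated sums, against 312 to 1492 CPM in Neurog3-gated sums. That level can rest on few markers: the Neurog3-gated sum of EP17 reached 984 CPM with 1 of 12 above 0. The Neurog3-gated sum of EP11 reached 863 CPM with 3 above 0, and that of EP10 1067 CPM with 10. In insulin-gated and glucagon-gated sums, 4 to 9 markers were above 0. In clusters named for non-epithelial lineages lay 4 Neurog3-gated, 8 glucagon-gated and 2 insulin-gated cells. The part of such cells, or of mesenchymal RNA, in the lower fibrillar and type VI chains was not tested. Among the collagens Col2a1 showed the largest difference, -7.46 (SE 0.376, adjusted p = 2.33e-23). Col9a3 differed by -4.16 (SE 0.314, adjusted p = 4.32e-17), Col9a1 by -4.03 (SE 0.379, adjusted p = 1.64e-13), Col13a1 by -4.45 (SE 0.677) and Col18a1 by -3.76 (SE 0.377, adjusted p = 1.18e-11). Col4a6 had 8 transcripts in Neurog3-gated cells and none in hormone cells, at least 30.3-fold lower. The single chain called higher, Col6a6 (3.35, SE 1.26, adjusted p = 0.0261), rests on 1 transcript in Neurog3-gated cells and lost its call in 6 of the alternative settings.

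Col4a1, Col1a2, Col6a3 and Col9a2 were not called in that comparison. Their log2 differences were -0.30 (SE 0.358, adjusted p = 0.525), -0.61 (SE 0.642, adjusted p = 0.472), 0.83 (SE 0.661, adjusted p = 0.323) and -0.57 (SE 0.311, adjusted p = 0.132). These values do not show equal levels. A mean of insulin-gated and glucagon-gated cells can also hide differences that run opposite ways. Col6a3 was at 26.95 to 164 CPM in insulin-gated sums, against 0 to 54.2 CPM in Neurog3-gated sums. It was lower in glucagon-gated than in insulin-gated cells, and Col1a2 was higher there, as given below. For Col4a1 and Col6a3 in insulin-gated cells and Col1a2 in glucagon-gated cells, the usual partner chain was low in the same cells. In insulin-gated cells, Col4a1 was at 79.7, 79, 66.2, 58.2 and 45.4 CPM in EP12, EP14, EP10, EP17 and EP16, while Col4a2 was at 2.95, 4.13, 2.78, 1.55 and 1.3 CPM. The ratio of Col4a1 to Col4a2 was 19.1 to 37.5 there. It was 0.986 to 1.73 in mesenchyme, 1.27 to 2.07 in trunk, 1.37 and 1.42 in endothelial cells and 0.255 to 0.667 in the mesothelial sums given a ratio. Another annotated gene on the opposite strand, Gm15418, lies over the last 2000 bases of Col4a1. Such an opposite-strand gene also lies over the last 2000 bases of Col9a3 (Tcfl5), Col18a1 (Slc19a1) and Col4a3 (C430014B12Rik). Whether the counting used strand is not given in the sources used here, so reads of each such pair cannot be told apart.

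Col6a3, the largest chain of type VI collagen, also exceeded its partner. It was at 116, 164, 69.6, 141 and 26.9 CPM in insulin-gated cells of EP12, EP14, EP10, EP17 and EP16, and its partner Col6a2 at 1.97, 9.82, 13.4, 14.7 and 5.95 CPM. The ratio of Col6a3 to Col6a2 ran from 4.53 to 59 in insulin-gated cells and from 0.339 to 0.916 in mesenchyme. Of the 1000 insulin-gated cells, 38.2% had a Col6a3 transcript (Wilson 95% interval 35.2% to 41.3%), or 9.5% after thinning each cell to 2000 transcripts. Immune cells had 6.25%, or 1.17% after thinning, at a median of 13384 transcripts per cell beside 17611. No other annotated gene lies over the last 2000 bases of Col6a3 or Col6a2.

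**Figure D4:**
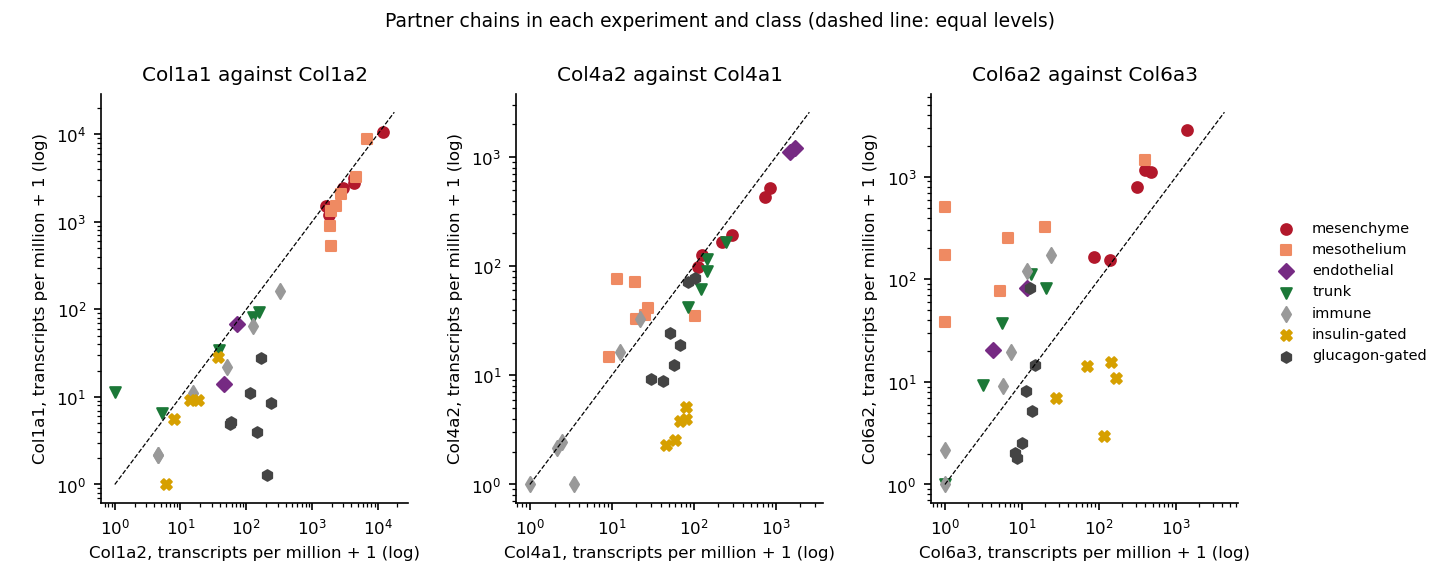
Level of a chain (y axis) against that of its partner (x axis), both as CPM plus 1 on log scales, for type I, type IV and type VI collagen; each point is 1 class in 1 experiment and the dashed line marks equal levels. Mesenchyme lies at or just below the line for types I and IV and above it for type VI, while glucagon-gated cells lie below it for type I and insulin-gated cells below it for types IV and VI.

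Glucagon-gated and insulin-gated cells differed in the levels of some chains. Of 38 collagens, 11 were called, 10 higher and 1 lower in glucagon-gated cells, where 18.2% of all genes were called (9.96% higher, 8.28% lower). The median log2 difference was 1.08 over the collagens and 0.07 over all genes, and 0.97 with 3 members at their bounds. Lower was Col6a3, at 7.04 to 13.6 CPM in the 7 glucagon-gated sums, by -2.94 (SE 0.606, adjusted p = 0.000259). The groups did not overlap, but on live plates alone the difference was -1.90 (adjusted p = 0.633).

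Col1a2 had the highest mean of any collagen in glucagon-gated cells (140 ± 69.3 CPM, SD, n = 7 experiments). It stood at 206 and 237 CPM at E12.5 (EP11, EP18) and at 143, 113, 56.7, 58.3 and 167 CPM in EP12, EP14, EP10, EP17 and EP16, against 4.92, 17.6, 12.8, 36.4 and 6.97 CPM in insulin-gated cells of the last 5 experiments. The groups did not overlap, and the difference was 3.76 (SE 0.794, adjusted p = 0.000353), and 3.52 (adjusted p = 0.00158) without EP11. Its partner Col1a1 was at 0.269, 7.63, 3.02, 10.2, 3.94, 4.17 and 27.2 CPM in the same 7 sums, and was not called (-0.12, SE 0.770, adjusted p = 0.971). In EP11, 233 of 262 cells (88.9%, Wilson 95% interval 84.6% to 92.2%) had a Col1a2 transcript and 1 had a Col1a1 transcript.

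Of the 262, 256 came from the MIP-GFP plate of EP11, whose title names E15.5 and whose stage field E12.5. Among these 256 cells, 89.5% had a counted Col1a2 transcript and 0 a Col1a1 transcript, which allows a share of up to 1.17% of cells with a counted transcript and sets no limit on cells that express the gene at a low level. In EP18, the other experiment of E12.5, 75 of 110 cells (68.2%) had Col1a2. Most of the cells of both lay in the clusters with raised hepatocyte-list genes. Over all glucagon-gated cells, 24.9% had Col1a2 after thinning (interval 21.5% to 28.6%) and 0.876% had Col1a1. Immune cells had 8.2% and 7.03%, and insulin-gated cells 2.2% and 1.5%. The unthinned shares were 73% and 4.55% in glucagon-gated cells, 26.2% and 19.5% in immune cells and 8.9% and 5.3% in insulin-gated cells. The median depth per cell was 22896, 13384 and 17611 transcripts. The ratio of Col1a1 to Col1a2 was 0.00131 to 0.163 in glucagon-gated cells, 0.425 to 0.5 in the immune sums given a ratio and 0.649 to 0.933 in mesenchyme, and the 12 mesenchyme markers summed to 44.9 to 106 CPM in glucagon-gated and 213 to 1287 CPM in immune cells, with 2 of the 12 at 0 in each.

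Col1a2 lies on chromosome 6 (chr6:4504814-4541544, plus strand), and no other annotated gene overlaps its last 2000 bases. The 250 bases before its RefSeq start (chr6:4505368-4505617, plus strand, GRCm38.p6) and those before Col3a1 (chr1:45311288-45311537, plus strand) are shown because both were high in mesenchyme and 1 of them was high in glucagon-gated cells. The Col1a2 stretch lies inside the GENCODE gene, whose annotated start is further upstream. Capitals mark the same 3 motifs.
Col1a2: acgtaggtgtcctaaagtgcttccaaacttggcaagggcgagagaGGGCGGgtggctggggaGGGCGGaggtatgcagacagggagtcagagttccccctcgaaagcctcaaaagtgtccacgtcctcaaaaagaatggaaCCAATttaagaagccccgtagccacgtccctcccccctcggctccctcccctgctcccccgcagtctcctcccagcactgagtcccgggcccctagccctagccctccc
Col3a1: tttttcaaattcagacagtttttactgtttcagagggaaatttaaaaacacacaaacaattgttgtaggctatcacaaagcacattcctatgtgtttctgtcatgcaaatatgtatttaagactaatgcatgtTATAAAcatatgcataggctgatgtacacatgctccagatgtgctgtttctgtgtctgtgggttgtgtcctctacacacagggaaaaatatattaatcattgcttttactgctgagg
The Col1a2 stretch is 62% G or C and holds 1 CCAAT and 2 GGGCGG. That of Col3a1 is 35.2% G or C and holds 1 TATAAA.

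Col4a2 was the other large difference, by 3.85 (SE 0.695, adjusted p = 3.4e-05). It was at 76.3 and 70.2 CPM in glucagon-gated cells at E12.5, and at 18.1, 11.5, 7.87, 8.33 and 23.3 CPM in EP12, EP14, EP10, EP17 and EP16, above every insulin-gated sum. Col4a1 did not differ by the test (0.07, SE 0.391, adjusted p = 0.961), with 29.2 to 103 CPM in glucagon-gated cells. The ratio of Col4a1 to Col4a2 in glucagon-gated cells was 1.35 and 1.18 at E12.5 and 3.72 to 5.2 in the 3 later sums given a ratio. Insulin-gated cells of E12.5 were too few for a sum, so the earliest glucagon-gated cells have no counterpart.

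Col8a2 had 84 transcripts in glucagon-gated cells and 1 in insulin-gated cells, a ratio of 120 with an exact 95% interval of 21 to 4807. Col15a1 differed by 3.16 (adjusted p = 0.0181), a call lost in 6 of the alternative settings, and Col9a1 by 2.79 (SE 0.585, adjusted p = 0.000252). Col9a3 passed (1.31, SE 0.465, adjusted p = 0.0391) but lost its call in 10 of the alternative settings. Col9a2 was present in both: insulin-gated cells held 105, 88.9, 106, 102 and 106 CPM in the 5 sums, and 70.2% of those cells had a transcript. Glucagon-gated cells held 20.6 and 42 CPM at E12.5 and 49.3 to 119 CPM later, and the difference was not called (-0.78, SE 0.329, adjusted p = 0.094).

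Most of the collagens tested in mesenchyme rose with stage, a result that leans on EP16, the only experiment of E18.5. Of 31 collagens tested for a slope over the 6 sums, 19 were called, 17 rising and 2 falling, where 6% of all 10977 genes were called (4.57% rising, 1.43% falling). The median slope was 0.42 per day on the log2 scale for the collagens and -0.01 for all genes. The 17 were 6 of 9 fibrillar chains, 2 of 3 type IV chains, both multiplexins, 3 of 5 FACIT chains, 3 of 4 beaded filament chains and 1 of 2 network chains.

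The steepest slope was that of Col5a3 at 1.59 per day (SE 0.0804, adjusted p = 5.5e-05), with 9.69 CPM at E15.5 and 408 CPM at E18.5. Col15a1 rose by 1.08 (SE 0.0707, adjusted p = 7.8e-05), from 3.43 and 3.68 CPM at E12.5 through 11.8, 14.3 and 51.9 to 296 CPM. Col12a1, a FACIT chain of dense connective tissue, rose by 0.87 (SE 0.102, adjusted p = 0.00162), from 15.6 and 1.84 to 334 CPM. The main type VI chains rose: Col6a1 by 0.68 (SE 0.0988), Col6a2 by 0.65 (SE 0.117) and Col6a3 by 0.60 (SE 0.0736). Col1a1, Col1a2 and Col3a1 rose by 0.49, 0.48 and 0.42 per day, and Col4a1 by 0.55 (SE 0.0875, adjusted p = 0.00678).

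2 chains fell. Col25a1, a transmembrane collagen, was at 36.9 and 97.7 CPM at E12.5, 12.8 to 16.9 CPM between and 3 CPM at E18.5, and fell by 0.69 per day (SE 0.159, adjusted p = 0.035). Col9a2 was at 119 and 111 CPM at E12.5 and 17.2 CPM at E18.5 and fell by 0.45 per day (SE 0.080, adjusted p = 0.0118). Col23a1 and Col26a1 were highest at E14.5: Col23a1 was at 97.8 and 47.9, 172, 256, 179 and 38.3 CPM, and Col26a1 at 80.7 and 35, 222, 244, 152 and 18 CPM in EP11, EP18, EP12, EP14, EP10 and EP16. Neither slope was called (-0.09, SE 0.193, and -0.22, SE 0.265).

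The slopes lean on E18.5, which is 1 experiment. Without EP16, 6 collagens were called, all rising, and 36 of all genes in place of 659. Col15a1 (1.24, adjusted p = 0.0369), Col12a1 (1.19, adjusted p = 0.0398), Col6a1 (1.04, adjusted p = 0.0494) and Col4a1 (0.85, adjusted p = 0.0338) were still called. Col5a3 (1.09, adjusted p = 0.232), Col1a1 (0.40, adjusted p = 0.345) and Col3a1 (0.49, adjusted p = 0.237) were not. Leaving out the cluster of the pericyte list, which removes the E12.5 sums, gave 14 calls, 12 rising and 2 falling. Col1a1 (0.48, adjusted p = 0.0108) and Col5a3 (1.69, adjusted p = 0.000861) were then called and Col4a1 (0.45, adjusted p = 0.119) was not.

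**Figure D5:**
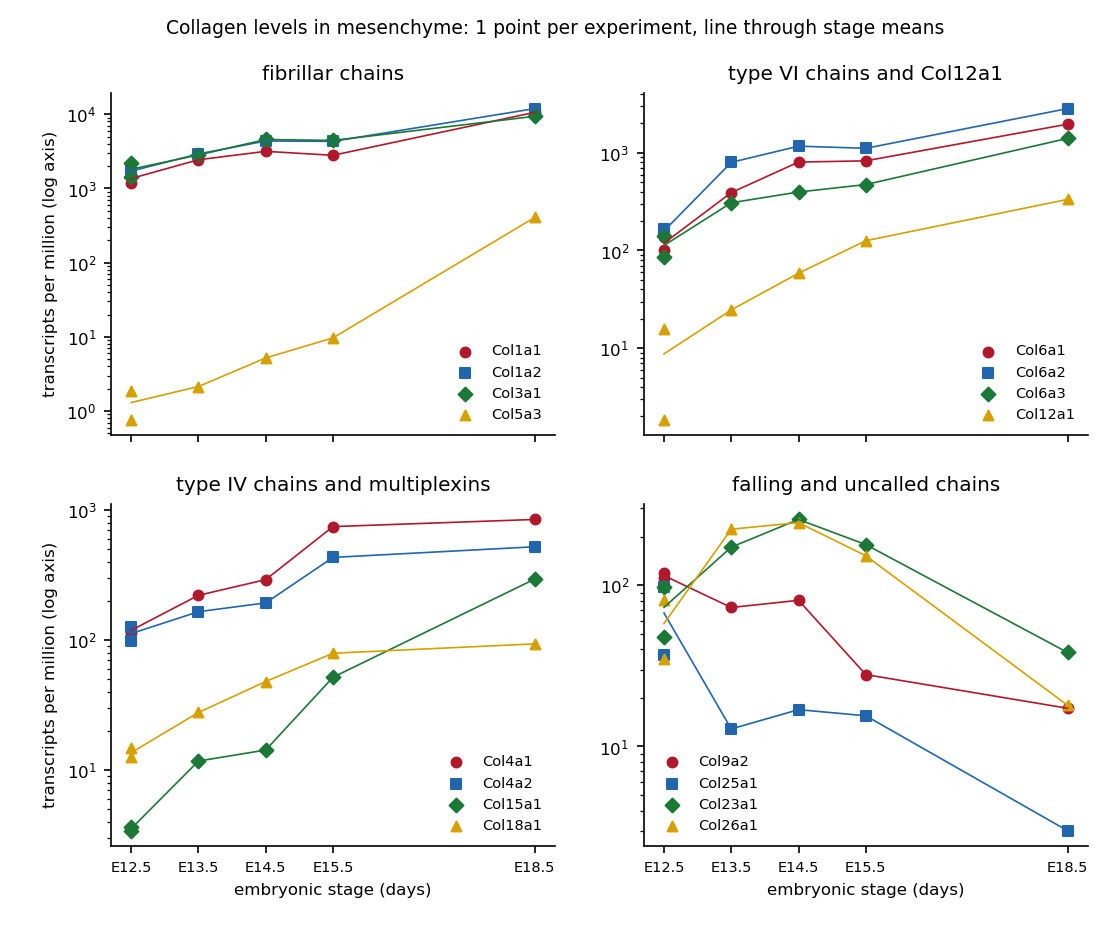
Levels of 16 collagens in mesenchyme (CPM, log scale) against embryonic stage (x axis, days); each point is 1 experiment and lines join stage means. Type I, III and VI chains climb from E12.5 to E18.5, Col5a3 climbs to 408 CPM at E18.5, and Col9a2 and Col25a1 descend.

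Genes that act on collagen were followed as 4 lists, chosen with earlier results of these data known: biosynthesis in the endoplasmic reticulum, processing and crosslinking outside the cell, receptors, and turnover. Between mesenchyme and trunk, all 9 processing and crosslinking genes tested were higher in mesenchyme, with a median log2 difference of 3.29 against 0.10 over all genes, of which 21.4% were called higher. Lox, the lysyl oxidase that crosslinks fibrils, had 634 transcripts in mesenchyme and none in trunk, at least 89.8-fold. Adamts2, which cuts the propeptide of fibrillar procollagen, differed by 5.63 (SE 0.561, adjusted p = 2.84e-12). Of 15 biosynthesis genes, 9 were higher and 1 lower, with P4ha2, a subunit of prolyl hydroxylase, at 4.01 (SE 0.468) and P4ha3 at -1.52 (SE 0.373). Of 9 receptors, 5 were higher and 1 lower. Ddr2, a receptor for fibrillar collagen, was higher by 6.33 (SE 0.469), and Ddr1, its epithelial relative, lower (-1.10, SE 0.174). Of 10 turnover genes, 6 were higher and 1 lower, the latter being Mmp15 (-3.06, SE 0.410).

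Mesothelium did not differ from mesenchyme in any of 15 biosynthesis genes by this test, and was lower in 4 of 9 processing genes, such as Pcolce (-1.53, SE 0.305), and in 5 of 10 turnover genes, such as Mmp2 (-2.12, SE 0.393), beside 9.99% of all genes called lower. Ddr1 was the 1 receptor higher in mesothelium (1.37, SE 0.168). Endothelial cells held Itga2, an integrin subunit for collagen, with 21 transcripts against none in mesenchyme, at least 106-fold, and Colgalt2, a collagen galactosyltransferase, with 9 against none, at least 45.6-fold. They were lower in 6 of 9 processing genes and higher in none, beside 10.3% of all genes called lower.

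Between hormone and Neurog3-gated cells, list genes were called in both directions. Of 15 biosynthesis genes 5 were higher and 4 lower, beside 18.2% and 26.1% of all genes. Sec31a and Mia3, which serve the export of large cargo, were higher by 1.29 (SE 0.128) and 1.23 (SE 0.136), and Serpinh1, the collagen chaperone, was lower (-1.88, SE 0.186, adjusted p = 1.27e-12), as was P4ha3 (-5.03, SE 0.470). No turnover gene was higher and 5 of 10 were lower, such as Mmp14 (-3.71, SE 0.239). P4hb, the partner subunit of prolyl hydroxylase and a general folding enzyme, was lower in glucagon-gated than insulin-gated cells (-1.56, SE 0.218). Along stages in mesenchyme, 5 of 14 biosynthesis and 3 of 10 processing genes rose and none fell, beside 4.57% of all genes rising, with P4ha2 at 0.54 per day (SE 0.0533, adjusted p = 0.000646) and Pcolce at 0.49 (SE 0.0540).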

How the data were processed

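Expected counts, which are molecular-barcode counts that the authors corrected for barcode collisions and so need not be whole, were deposited for 19788 rows, of which 89 were spike-ins. Reads were aligned with BWA to mm10 and Seurat was used, per the submitters' processing notes, with versions not given in the sources used here. Wells with under 2000 transcripts or 500 genes were left out, and 1536 columns (492 in a smaller table) that match no sample were not used. Cells were clustered with scanpy 1.11.5 and leidenalg 0.10.2 without collagens, and counts of each class and experiment (at least 5 cells) were summed, rounded and tested with edgeR 4.0.16 (TMM, filter on low counts), with the experiment code of the titles as a block. Classes of 1 experiment deviated together (median r 0.242 over 79 pairs, -0.0461 over 459 pairs of different experiments, lowest r within an experiment 0.0612). Slopes were fitted within 1 class, on the stage field. No doublet caller was run; 1 alternative drops the 8 cells that exceed the median of their plate 5 times. On simulated data for mesenchyme against trunk (13497 genes), 13.4%, 95.5% and 100% of genes changed 2-, 4- and 8-fold were recovered, and for the mesenchyme slope (12110 genes) 0%, 14.9% and 53%. The simulation gave all genes the same dispersion, had no experiment effect and changed only genes above a set mean level. These rates therefore need not hold for the collagens. Intervals and limits of a count of 0 cover counting error only. In the class comparisons, p-values rest on the spread left after the experiment block, with an estimate shared by the classes. In the slope fits, which have no block, they rest on the spread of the experiments around the line. Named in each comparison were the 5 largest called differences in each direction and 11 set chains; further chains and list genes were named after their values were seen. Members, lists and tests were chosen with earlier results of these data known. Alternatives were DESeq2 1.42.0, no filter, at least 10 cells per sum, live plates only, the authors' kept wells, clustering with collagens, stage from titles, no doublets, no block and leaving out each experiment. Chosen after seeing the data were 3 others: gated cells of endocrine or epithelial clusters only, no P6-002 plate, and no pericyte-list cluster.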

Additional observations from a re-analysis of the deposited data

Results flagged for a closer look

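In 11 of 62 groups of 4 to 10 sums, the highest value of a collagen stood apart from the others by Dixon's gap criterion. By chance that criterion gives about 1 in 20 for independent values without a trend. These sums span stages and share experiments, so 11 of 62 was not read as an excess. Of the 11, 8 were sums of E18.5 (EP16), the one experiment of that stage. In mesenchyme they were Col1a1 at 10637 CPM (next 3167), Col1a2 at 11951 CPM (next 4370) and Col6a3 at 1407 CPM (next 473.5). In mesothelium they were Col1a1 at 8747 CPM (next 3264), Col6a2 at 1456 CPM (next 510.1) and Col6a3 at 394.4 CPM (next 18.95). In glucagon-gated cells, of which EP16 held 15, Col6a2 stood at 81.62 CPM (next 13.57) and Col1a1 at 27.21 CPM (next 10.18). Stage and experiment cannot be told apart there.

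The remaining values were Col2a1 in mesenchyme of EP11 at 12.56 CPM (next 4.769), Col4a1 in mesothelium of EP17 at 102 CPM (next 26.97), a sum of 6 cells, and Col3a1 in Neurog3-gated cells of EP10 at 329.2 CPM (next 113.9).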

How the results depend on the processing

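With the block of the experiment left out, the counts of called collagens were 35, 21, 23, 14, 2, 22 and 8 for mesenchyme against trunk, mesothelium against mesenchyme, endothelial against mesenchyme, endothelial against trunk, Neurog3-gated against trunk, hormone-gated against Neurog3-gated and glucagon-gated against insulin-gated cells, each within 1.5 times the value with the block. Leaving out 1 experiment at a time gave 31 to 35, 20 to 24, 20 to 26, 10 to 15, 1 to 3, 17 to 22 and 7 to 9 in the same order, 6 to 19 for the mesenchyme slope and 0 to 7 for the trunk slope. The lowest values were 1 for Neurog3-gated against trunk without EP12, 7 for glucagon-gated against insulin-gated without EP11 or EP16, 6 for the mesenchyme slope without EP16, and for the trunk slope 0 without EP12 or EP16 and 1 without EP14. On live plates alone the counts were 9 for endothelial against trunk, 1 for Neurog3-gated against trunk, 9 for hormone-gated against Neurog3-gated and 3 for glucagon-gated against insulin-gated. In the wells the authors kept they were 5 (2 higher, 3 lower) for Neurog3-gated against trunk, 7 for glucagon-gated against insulin-gated and 1 for the trunk slope, and comparisons with mesenchyme, mesothelium or endothelial cells could not be fitted. DESeq2 gave 7 for glucagon-gated against insulin-gated. The cause of these differences was not tested, beyond there being fewer cells or sums. Over all genes, the slope count in mesenchyme went from 659 to 36 without EP16, 990 with DESeq2 and 1002 with no filter, and in trunk from 231 to 15 without EP16, 45 without EP12, 71 without EP14 and 564 with no filter. Of the values for named collagens under the alternatives, 2276 stayed on their side of the threshold, 109 lost a call, 11 gained one and none reversed a call. Depth limits the low chains: a class with 3 transcripts or fewer gives only a bound or a wide interval.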

Other observations

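Fev-gated cells lay outside every hormone gate and had at least 2 transcripts of Fev and none of Neurog3. Fev is a transcription factor of endocrine precursors after the Neurog3 stage. These cells numbered 376 in 7 experiments and entered no comparison. Their highest mean was that of Col9a2, at 109 ± 41.2 CPM (SD, n = 7), with 184 CPM in EP16 and 42.1 CPM in EP11. Col4a1 averaged 50.4 ± 25.1 CPM in the same cells. Col2a1 was at 5.32 CPM or less in each of the 7 Fev-gated sums, and at 0 in 4 of them. In Neurog3-gated cells it was at 153 to 290 CPM in the 4 sums in which it was counted. The fibrillar chains varied widely between sums, with Col1a1 at 0 to 117 CPM, Col1a2 at 14.4 to 196 CPM and Col3a1 at 0 to 231 CPM. Of the 376 cells, 28 lay in clusters named for non-epithelial lineages, and 10.6% of the 376 had a Col1a1 transcript. The part of those 28 cells in the fibrillar levels was not tested.

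Acinar cells, the enzyme-making lineage, held Col27a1 at 44.6 ± 21.7 CPM (SD, n = 4) and Col18a1 at 25.3 ± 13.8 CPM. The highest means there were those of Col3a1 (65.5 ± 90 CPM) and Col1a2 (64.5 ± 86 CPM), which varied widely between sums. Col6a2 (40.05 CPM) and Col1a1 (34.65 CPM) also had higher means than Col18a1. Col19a1, a FACIT chain, was under 10 CPM in every class but was counted in all 4 acinar sums, at 4.86 to 8.62 CPM. Of the other rare chains, Col20a1 averaged 2.19 CPM and Col28a1 0.921 CPM in insulin-gated cells, Col4a3 3.11 CPM in Neurog3-gated cells and Col4a4 2.21 CPM in mesothelium. These classes are those of the highest mean. Col4a3 and Col4a4 form the third head-to-head pair of type IV genes, with starts 72 bases apart, and their highest sums stood at 17.4 and 10.1 CPM.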
